A study of Mus musculus with 16 samples.

Results

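The comparison described here set F4/80- myeloid cells against neutrophils, both sorted from the interface tissue on day 1 after anterior cruciate ligament reconstruction (ACLR). In this operation the ligament of the knee is replaced by a tendon graft drawn through bone tunnels, and the interface tissue is what fills the space between graft and bone. The libraries were chosen by their sort gate and their day, which gave 4 of the 16 libraries of the series, 2 of each population. All mice were male, C57BL/6 and 12 weeks old, labelled WT and had undergone ACLR, so neither group is an unoperated control.

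F4/80- cells were live CD45+ CD11b+ cells that stained for neither Ly6G nor F4/80, and neutrophils were live CD45+ cells that stained for Ly6G and Ly6C, in both cases after lineage-positive cells (B220, CD3e, NK1.1, Ter119, CD34 or c-Kit) had been gated out. Each library is a pool of several mice, so the spread between replicates is the spread between 2 pools, and the populations of a day shared mice, since fewer mice were used than separate pools would need. The F4/80- gate is set by the absence of antigens and can hold more than 1 cell type, and in such bulk samples more cells of a type and more RNA per cell cannot be told apart. With 2 libraries against 2, the smallest two-sided p of an exact permutation test is 0.333, so single genes were tested with the model fitted across all genes and libraries.

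Neutrophils are made in the bone marrow, where their precursors fill the granules in sequence. The genes of the primary granules (myeloperoxidase and the serine proteases) are transcribed first, in dividing progenitors, those of the secondary granules (lactoferrin, neutrophilic granule protein) next, and those of the tertiary granules and of the mature surface receptors last. Recruited neutrophils are a source of interleukin 1 and of CXC chemokines. The Ly6G- F4/80- myeloid compartment of a bone wound can hold immature granulocytes and monocytes, dendritic cells and basophils. Basophils are rare granulocytes that carry the high-affinity receptor for immunoglobulin E (IgE), store proteases of their own and make type 2 cytokines.

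The 4 libraries held between 14933365 and 18910479 counts. Levels are given as CPM, the usual unit in which counts are expressed relative to the library total, scaled with factors of the trimmed mean of M values (TMM), which were 1.16 in both F4/80- libraries and 0.752 and 0.766 in the neutrophil libraries. On log2 CPM the replicates correlated at Pearson's r = 0.984 in F4/80- cells and 0.981 in neutrophils, and the SD over genes of the log2 difference between replicates was 0.391 and 0.523. Neutrophil replicate 1 was the higher of its pair in the summed CPM of the secondary and tertiary granule genes (76500 against 48000) and replicate 2 in that of the inflammatory cytokines (9940 against 15100), whereas the F4/80- replicates differed less in both sums (35900 and 31100, 924 and 952). Transcripts of the mitochondrial genome took 14.1% and 14.5% of the counts in F4/80- cells and 6.51% and 4.88% in neutrophils.

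The genes of the sort antigens were examined first. Ly6g reached 9.63 and 6.94 CPM in the F4/80- libraries and 125 and 81.4 CPM in the neutrophil libraries, a log2 fold change of -3.64 ± 0.35 (SE; adjusted p = 3.6e-07, edgeR's quasi-likelihood test). The populations did not overlap, and the direction was that of the Ly6G gate. Adgre1, which encodes F4/80, was low in both populations, at 13.8 and 8.4 CPM in F4/80- cells and 41.2 and 43.5 CPM in neutrophils, and was thus lower in the F4/80- libraries (log2 fold change -1.93, adjusted p = 3e-06). Cd9 was also lower in F4/80- cells (108 and 107 against 676 and 673 CPM), and Cx3cr1, the fractalkine receptor gene, was higher (21.8 and 18.8 against 8.22 and 9.8 CPM). Itgam, which encodes the CD11b of the gate, was 205 and 181 CPM in F4/80- cells and 945 and 702 CPM in neutrophils. Ly6c2 did not pass the test, with 277 and 275 CPM against 349 and 195 CPM. Ly6g and Ly6c2 belong to a family of near-identical genes, between which reads may be split.

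Of the 11998 genes tested, 5882 were differentially expressed genes (DEGs), which is 49.0% of them. A DEG here passed an adjusted p of 0.05 in edgeR's quasi-likelihood test and differed at least 2-fold. The F4/80- cells had the higher level in 3169 DEGs (26.4% of the genes tested) and the neutrophils in 2713 (22.6%). The counts of each gene list below are to be read beside these shares. The libraries of the populations did not overlap in 5867 of the 5882 DEGs, but neither did they in 83.9% of all tested genes, so that lack of overlap by itself sets no gene apart. Differences were large in both directions, with a median log2 fold change of 2.0 among the DEGs higher in F4/80- cells and of -1.78 among those higher in neutrophils. At least an 8-fold difference was reached by 589 and 503 of them.

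**Figure D1:**
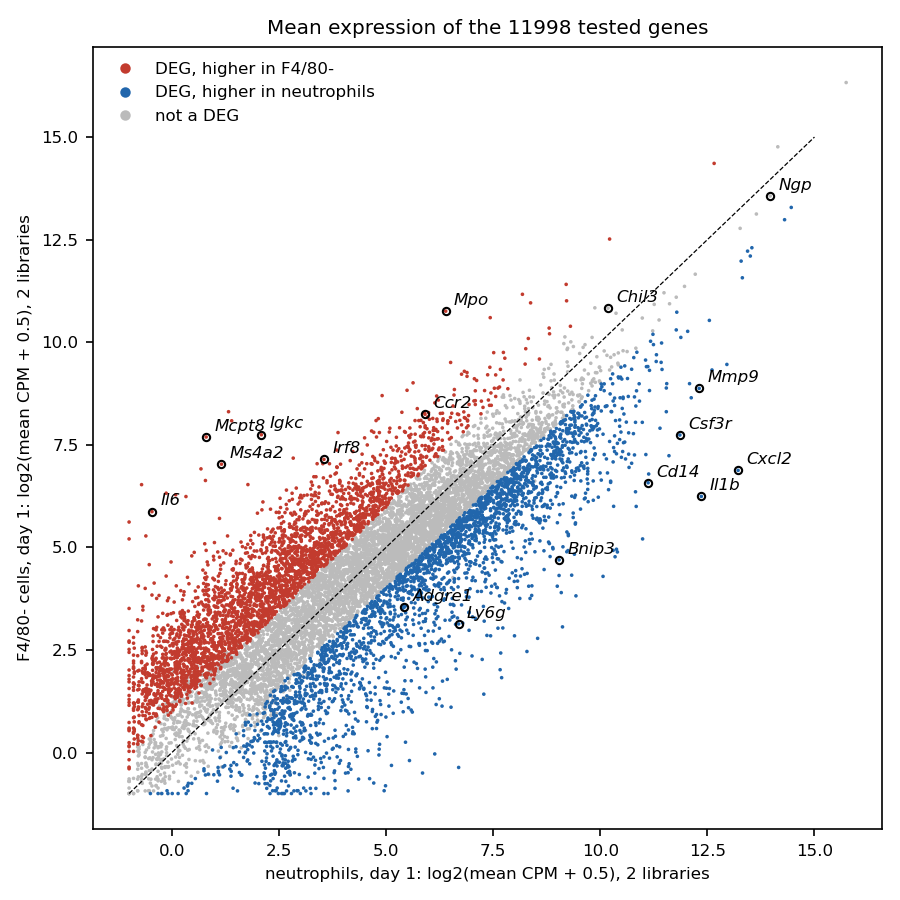
Mean expression of each tested gene in neutrophils (x axis) and F4/80- cells (y axis) on day 1, as log2 of the mean CPM of 2 libraries plus 0.5, with DEGs in red (3169, higher in F4/80- cells) and blue (2713, higher in neutrophils). Mcpt8, Ms4a2, Il6 and Mpo lie far above the diagonal, Cxcl2, Il1b, Csf3r and Cd14 far below it, and the secondary granule genes Ngp and Chil3 lie near it.

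The balance between the directions depended on the scaling. TMM placed the median log2 fold change of all tested genes at -0.02, and 53.9% of the DEGs were higher in F4/80- cells. With the upper quartile the median was 0.28 and that share 65.5%, and with the library size alone the median was 0.59 and the share 75.2% (4530 DEGs higher in F4/80- cells and 1492 in neutrophils). DESeq2's size factors gave a median of -0.03 and a share of 53.9%. Fold changes are therefore relative to the median gene under TMM, and lists with medians near 0 are the ones whose direction turns on this choice.

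**Figure D2:**
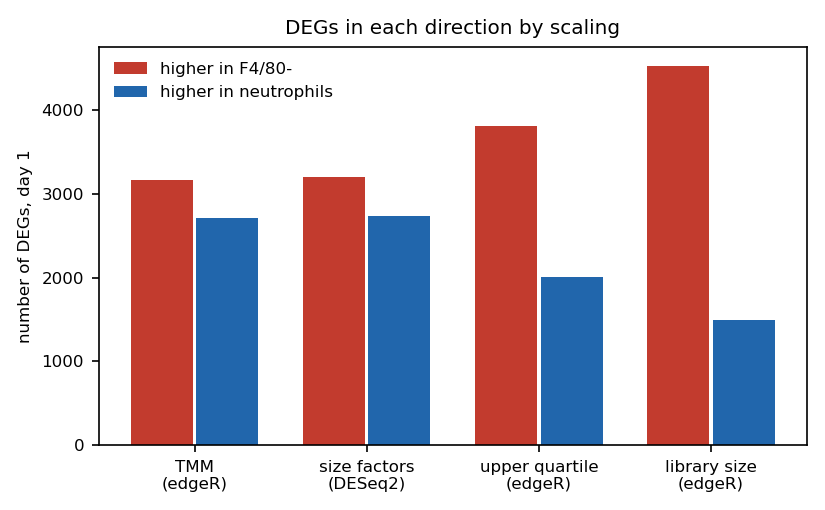
Number of DEGs higher in F4/80- cells (red) and in neutrophils (blue) on day 1 under 4 ways of scaling the libraries, from 0 on the y axis. The totals are alike (5827 to 6022), while the neutrophil share of the calls drops when the libraries are scaled by their size only (1492 DEGs).

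Genes of basophils were prominent on the F4/80- side. Of the 12 tested genes of the basophil and mast cell list, 11 were higher in F4/80- cells, none was higher in neutrophils, and the median log2 fold change was 6.76, beside -0.02 over all genes tested. The summed CPM of the list was 1560 and 1330 in F4/80- cells and 250 and 263 in neutrophils, where the receptor chain gene Csf2rb2 alone made up 232 and 252 CPM. The mast cell protease genes Mcpt4, Cma1, Tpsb2 and Tpsab1 had no entry under these symbols in the deposited counts. Basophils and mast cells were therefore not separated by them.

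Mcpt8 (chr14:56082166-56085273, mm10), which encodes a serine protease of basophil granules, reached 224 and 188 CPM in the F4/80- libraries and 1.87 and 0.612 CPM in the neutrophil libraries. The fitted log2 fold change was 7.32 ± 0.44 (SE; adjusted p = 3.9e-09). Prss34, another basophil protease gene, was 349 and 282 CPM against 2.69 and 1.31 CPM (7.27 ± 0.37, adjusted p = 9.5e-10). Both genes stood at a few CPM or less in neutrophils, and the populations did not overlap. Gata2, a transcription factor of basophils, mast cells and progenitors, was 281 and 262 CPM against 2.17 and 2.1 CPM (log2 fold change 6.98). Ms4a2, the beta chain of the IgE receptor, was 154 and 106 CPM against 1.72 and 1.75 CPM (6.22), and Fcer1a, its alpha chain, was 27.9 and 18.9 CPM against 0.299 and 0.0875 CPM (6.80). Cpa3 (carboxypeptidase A3) and Cd200r3, an activating receptor of basophils, had log2 fold changes of 6.73 and 6.66. Because the neutrophil libraries held few counts of these genes, the values moved when 1 was left out, to 8.38 for Mcpt8, 7.91 for Prss34 and 7.93 for Fcer1a without neutrophil replicate 1 and to 7.61 for Cd200r3 without neutrophil replicate 2.

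The cytokine and hormone genes of this list were higher as well. Il6 (chr5:30013114-30019981), which encodes interleukin 6, was 54.0 and 62.0 CPM in F4/80- cells, and in neutrophils 0.448 CPM (6 counts) in replicate 1 and 0 counts in replicate 2. The fitted log2 fold change was 7.86 ± 0.43 (adjusted p = 1.8e-09), and 12.64 without neutrophil replicate 1, the only library of that group with a count. Cyp11a1, the first enzyme of steroid synthesis, was 83.9 and 74.9 CPM against 0.822 and 0 CPM (7.47, and 13.1 without neutrophil replicate 1). Il4, the type 2 cytokine interleukin 4, had 447 counts over both F4/80- libraries and 3 over both neutrophil libraries, a ratio of 87.1 with a 95% counting interval of 29.6 to 424. The receptor chains went separate ways: Il1rl1, the interleukin 33 receptor, was higher (31.4 and 27.9 against 6.35 and 3.32 CPM), while Csf2rb2 had a log2 fold change of -0.97 and was not a DEG (-1.02, and a DEG, without neutrophil replicate 1). Further genes among the 15 with the largest fold changes were Cdh1 (E-cadherin, log2 fold change 6.30), Padi2 (a peptidylarginine deiminase, 4.95) and Gria3 (a glutamate receptor subunit, 4.93).

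The promoter windows of Ms4a2 and Cpa3, which were higher in F4/80- cells along with Gata2, are shown for the letters that GATA factors are known to bind (RefSeq sequence, GRCm38.p6, from 250 bases before to 50 bases after the start), with those letters in capitals, AGATAA or TGATAA on either strand. The Ms4a2 window is chr19:11623670-11623969 and the Cpa3 window chr3:20242132-20242431, both on the minus strand.
Ms4a2: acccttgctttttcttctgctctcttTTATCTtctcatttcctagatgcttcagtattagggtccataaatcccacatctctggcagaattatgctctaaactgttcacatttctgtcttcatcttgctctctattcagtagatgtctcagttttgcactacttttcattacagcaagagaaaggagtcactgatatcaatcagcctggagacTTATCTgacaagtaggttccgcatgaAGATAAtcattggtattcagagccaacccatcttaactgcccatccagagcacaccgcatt
Cpa3: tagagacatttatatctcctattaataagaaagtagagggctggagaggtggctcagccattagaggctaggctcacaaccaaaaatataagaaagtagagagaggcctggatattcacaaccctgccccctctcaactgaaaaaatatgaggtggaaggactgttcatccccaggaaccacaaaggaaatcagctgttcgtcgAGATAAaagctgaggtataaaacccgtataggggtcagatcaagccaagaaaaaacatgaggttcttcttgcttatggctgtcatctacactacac
The letters occur 3 times in the Ms4a2 window and 1 time in the Cpa3 window. Of the 15 windows of the 11 DEGs of the list, 9 hold them, beside 18.6% of all 32851 windows. A match of letters is a description and not evidence of binding.

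Genes of immature granulocytes were also higher in F4/80- cells. Of the 7 primary granule genes, 6 were higher, none was lower, and the median log2 fold change was 3.81. Mpo, which encodes myeloperoxidase, was 1440 and 2010 CPM in F4/80- cells and 113 and 53.5 CPM in neutrophils, a log2 fold change of 4.37 ± 0.40 (adjusted p = 1.7e-07). Both F4/80- libraries lay far above both neutrophil libraries. The serine protease genes Elane (348 and 482 against 39.4 and 19.6 CPM), Prtn3 (log2 fold change 3.96) and Ctsg (4.43) followed the same direction, as did Ms4a3, a membrane protein gene of granulocyte and monocyte progenitors (3.45). Serpinb1a, an inhibitor of these proteases, was not a DEG (385 and 369 against 354 and 201 CPM, log2 fold change 0.44), although it was with scaling by library size (1.05).

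Progenitor genes were higher too, in 7 of the 8 tested (median log2 fold change 3.19). Flt3, a growth factor receptor of early progenitors and dendritic cells, was 21.1 and 27.9 CPM against 0.972 and 0 CPM (5.54, and 11.4 without neutrophil replicate 1). Myc was 21.2 and 26.9 CPM against 1.87 and 1.75 CPM, and Sox4 had a log2 fold change of 3.98. Myb, which marks dividing progenitors, was present in both populations (130 and 145 against 39.3 and 34.7 CPM). Kit and Cd34, whose proteins were among the lineage antigens of the sort, were at 30.3 and 31.9 CPM and at 14.8 and 12.2 CPM in F4/80- cells. Of these, Cd34 was a DEG (5.38 and 3.15 CPM in neutrophils) and Kit was not (17.6 and 15.1 CPM, log2 fold change 0.92), although Kit was with upper quartile scaling (1.23) or library size (1.53).

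Genes of the cell cycle were higher in F4/80- cells almost throughout, at 34 of 35 tested, with a median log2 fold change of 2.21. The replication helicase gene Mcm2 was 162 and 168 CPM against 17.3 and 10.6 CPM (log2 fold change 3.56 ± 0.25, adjusted p = 1.2e-08). Tyms and Dut, enzymes of thymidine nucleotide supply, had log2 fold changes of 3.54 and 3.49. Other genes of DNA replication such as Mcm6 (3.34) and Uhrf1 (3.20) were near these values, and genes of mitosis such as Plk1 (1.43) and Cenpf (1.25) had smaller ones. Mki67, the proliferation marker, was 2710 and 2730 CPM in F4/80- cells and still 685 and 492 CPM in neutrophils. Hmgb2 was the member that was not a DEG (log2 fold change 0.52), although it was with scaling by library size (1.14).

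The promoter window of Mcm6 (RefSeq, GRCm38.p6, chr1:128359656-128359955, minus strand) is shown as an example of the replication genes, with the letters of the E2F site, TTTGGCGC or TTTCGCGC on either strand, in capitals. E2F proteins are the transcription factors that switch on replication genes before DNA synthesis.
Mcm6: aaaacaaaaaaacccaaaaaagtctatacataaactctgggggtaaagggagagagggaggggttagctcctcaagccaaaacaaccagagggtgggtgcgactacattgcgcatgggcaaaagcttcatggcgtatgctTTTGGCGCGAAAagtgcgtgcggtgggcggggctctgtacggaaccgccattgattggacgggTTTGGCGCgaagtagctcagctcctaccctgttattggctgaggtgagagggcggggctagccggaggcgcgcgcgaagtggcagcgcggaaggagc
The letters occur 3 times, and the first pair of matches overlap each other. The 27 DEGs of the list with a window have 29 windows. Of these windows 6 hold the letters (Cdk1, Mcm3, Mcm5, Mcm6, Mcm7 and Uhrf1), beside 0.813% of all windows.

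Ribosomal protein genes were higher in F4/80- cells in 63 of 82 tested and higher in neutrophils in none, with a median log2 fold change of 1.59. Rpl10a was 103 and 103 CPM against 13.2 and 8.92 CPM (3.21), although such genes have many near-identical pseudogenes that can share their reads. All 8 mitochondrial genome genes of the list used here were higher, with log2 fold changes from 2.05 to 3.16. Among them mt-Nd1 was 1460 and 1630 CPM against 213 and 131 CPM. The summed CPM of these 8 genes was 12900 and 13900 in F4/80- cells and 2940 and 1660 in neutrophils. They made up only a part of the mitochondrial transcripts. All mitochondrial transcripts took 14.1% and 14.5% of the counts, before TMM scaling, in F4/80- cells and 6.51% and 4.88% in neutrophils. That difference was smaller than those of the 8 genes. Nuclear genes of the respiratory chain numbered 23 DEGs of 79 tested, all higher in F4/80- cells (median 0.67), a share near the 26.4% of all tested genes that were higher in these cells. The number of these DEGs rose to 46 with scaling by library size and to 36 with upper quartile scaling. Over all 11998 tested genes, those higher in F4/80- cells rose from 3169 to 4530 and 3818 under these scalings. The nearness to the share of all genes is thus that under TMM. The median of the list was 0.92 without neutrophil replicate 1 and 0.42 without neutrophil replicate 2.

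The later granule genes gave another picture. Among the 17 secondary and tertiary granule genes, 13 were higher in neutrophils and none in F4/80- cells, yet the most abundant of them, Ltf and Ngp, were not DEGs. Ltf (lactoferrin) was 9720 and 8130 CPM in F4/80- cells and 16100 and 9390 CPM in neutrophils (log2 fold change -0.52 ± 0.50, adjusted p = 0.38). Ngp was 12800 and 11400 CPM against 20500 and 11600 CPM (-0.40 ± 0.48), and Camp, the cathelicidin gene, 1730 and 1610 CPM against 1690 and 938 CPM (0.35 ± 0.35). For these genes a difference was not detectable beside the spread of the neutrophil libraries. Chil3, a chitinase-like protein of immature neutrophils, had a log2 fold change of 0.65 and became a DEG higher in F4/80- cells without neutrophil replicate 1 (1.10) or with scaling by library size (1.26).

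In contrast, the genes of granule metalloproteases and of Retnlg, a resistin-like protein, were much higher in neutrophils. Mmp8, the collagenase stored with lactoferrin in secondary granules, was 164 and 136 CPM in F4/80- cells and 3750 and 2470 CPM in neutrophils (log2 fold change -4.38 ± 0.30, adjusted p = 1.1e-08). Mmp9, the gelatinase of tertiary granules (536 and 402 against 6030 and 4120 CPM) and Retnlg (122 and 98 against 2790 and 1700 CPM) had log2 fold changes of -3.44 and -4.35. Genes of the same granule class thus differed widely, with log2 fold changes of -0.52 for Ltf and -4.38 for Mmp8. The number of DEGs of this list higher in neutrophils was 13 under TMM, 8 under upper quartile scaling and 6 with scaling by library size, while Mmp8, Mmp9 and Retnlg remained DEGs under each of these. It was also 8 without F4/80- replicate 2 and 8 without neutrophil replicate 1.

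**Figure D3:**
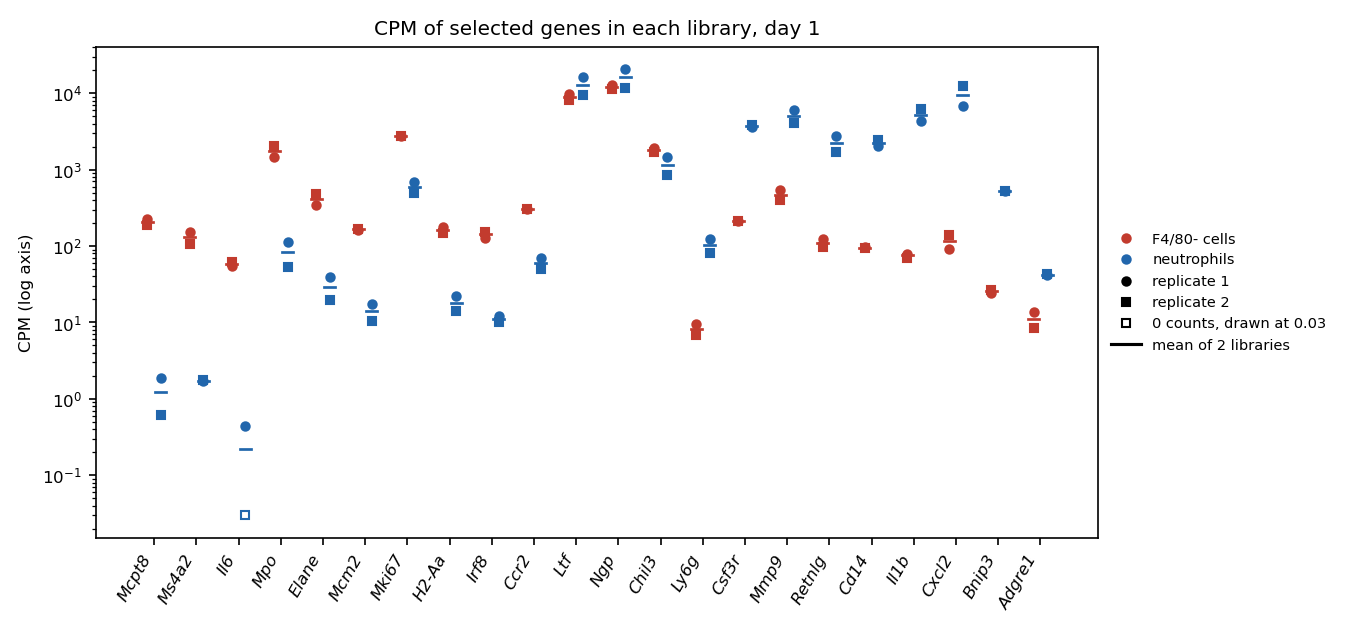
CPM (log axis) of 22 genes in each library of day 1, F4/80- cells in red and neutrophils in blue, circles for replicate 1, squares for replicate 2 and bars for the mean of 2 libraries. An open square stands for 0 counts. The populations overlap in Ltf and Ngp and are apart in the other genes shown.

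Surface and cytosolic genes of mature neutrophils were higher in the neutrophil libraries at 19 of 20, with a median log2 fold change of -2.98. Csf3r, the receptor of the granulocyte growth factor G-CSF, was 213 and 214 CPM in F4/80- cells and 3620 and 3790 CPM in neutrophils (-4.12 ± 0.17, adjusted p = 2.5e-10). Cxcr2, the receptor for CXC chemokines, was 140 and 107 CPM against 1860 and 1390 CPM, and its relative Cxcr1 0.34 and 0.183 CPM against 9.27 and 11.4 CPM. Asprv1, a protease, and Clec4d, a C-type lectin receptor, had the lowest values of the list (-5.96 and -5.66). The alarmin genes S100a8 and S100a9 differed less, at 4310 and 3750 CPM against 12600 and 7480 CPM and at 8730 and 7490 CPM against 25600 and 14800 CPM. Both had a log2 fold change of -1.32 (adjusted p = 0.018 and 0.016). These calls were lost without neutrophil replicate 1 (-0.88 and -0.86), without F4/80- replicate 1 (-1.36 and -1.37) or F4/80- replicate 2 (-1.16 and -1.15), and with upper quartile scaling or library size.

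Monocyte genes were divided. Of 20 tested, 12 were higher in F4/80- cells and 6 in neutrophils, with a median log2 fold change of 1.72. Ccr2, the chemokine receptor of inflammatory monocytes, was 305 and 302 CPM in F4/80- cells and 69.3 and 49.7 CPM in neutrophils (2.35 ± 0.23, adjusted p = 3.9e-07). Ly86, a partner of a Toll-like receptor relative (40 and 34.2 against 4.71 and 3.67 CPM), Ms4a6c (139 and 118 against 27 and 13.4 CPM) and F13a1, a coagulation factor subunit of monocytes (617 and 609 against 137 and 99.1 CPM), went the same way. Against this, Csf1r, the receptor of the macrophage growth factor, was lower in F4/80- cells (128 and 130 against 364 and 381 CPM, log2 fold change -1.53), although not a DEG with scaling by library size (-0.92). Ccr1 (147 and 124 against 1290 and 1220 CPM), Treml4 (-3.03) and the immediate early factor Nr4a1 (-1.88) were higher in neutrophils.

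Genes of antigen presentation on major histocompatibility complex (MHC) class II were higher in F4/80- cells in 10 of 13, with a median log2 fold change of 3.08. H2-Aa, a class II chain, was 175 and 147 CPM against 22.4 and 14 CPM (3.14 ± 0.20, adjusted p = 6.7e-09), and Cd74, the invariant chain, 433 and 391 CPM against 84.5 and 59.6 CPM. Ciita, the master regulator of these genes, was 38.1 and 29 CPM against 4.48 and 1.92 CPM (3.36, and 4.13 without neutrophil replicate 1). Costimulatory genes differed among themselves, with Cd40 higher in F4/80- cells (4.11, and 5.49 without neutrophil replicate 1), Cd86 alike in level (14.9 and 15.4 against 14.1 and 14.4 CPM) and Cd80 higher in neutrophils (10.8 and 6.94 against 72.5 and 106 CPM).

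Conventional dendritic cell genes were higher in F4/80- cells in 8 of 11 (7 by DESeq2 and 9 with scaling by library size), most at low levels. Their median log2 fold change was 2.51, and between 2.45 and 2.74 when 1 library was left out. Cd209a, a lectin of monocyte-derived and type 2 dendritic cells, was 8.46 and 6.44 CPM against 0.523 and 0.175 CPM (4.34, and 5.35 without neutrophil replicate 1), while Itgax and Cd24a were higher in neutrophils (-1.36 and -2.14, the former not a DEG with scaling by library size, -0.75). Of 6 plasmacytoid dendritic cell genes 2 were higher in F4/80- cells and 2 in neutrophils. The counts were 1 and 2 without F4/80- replicate 1, neutrophil replicate 1 or neutrophil replicate 2, 4 and 2 with upper quartile scaling, and 4 and 1 with library size. Among transcription factors of granulocytes and monocytes 4 of 30 were higher in F4/80- cells. Irf8, which directs progenitors to the monocyte and dendritic cell fate, was 129 and 154 CPM against 12.3 and 10.1 CPM (3.65 ± 0.19, adjusted p = 1.4e-09). Irf4 (4.24), Klf4 (2.34) and Gfi1, a repressor needed for granulocyte formation (1.75), were the others. The 15 higher in neutrophils were led by Cebpb, Egr2 (18.5 and 11.9 against 179 and 269 CPM) and Bhlhe40 (107 and 117 against 951 and 1350 CPM). Cebpb rested largely on neutrophil replicate 2 (23.2 and 34.9 CPM against 214 and 2490 CPM), and its log2 fold change of -5.54 was -2.88 without that library.

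Interleukin 1 and several CXC chemokine genes were among those with the largest neutrophil excess. Of 20 inflammatory cytokine genes 16 were higher in neutrophils and 1, Il6, in F4/80- cells, with a median log2 fold change of -2.65. Il1b (chr2:129364570-129371139), which encodes interleukin 1 beta, was 79.8 and 70.7 CPM in F4/80- cells and 4350 and 6150 CPM in neutrophils (-6.12 ± 0.22, adjusted p = 6.5e-11). Il1a was 4.91 and 7.86 CPM against 202 and 540 CPM, and Il1rn, which encodes the antagonist of the same receptor, 33.7 and 39.2 CPM against 1520 and 2540 CPM. Agonists and antagonist were thus both far higher in neutrophils, with fitted log2 fold changes of -5.85 for Il1a (-4.98 without neutrophil replicate 2) and -5.80 for Il1rn. Il23a, a subunit of interleukin 23, was 0.632 and 0.32 CPM against 39.3 and 100 CPM (-7.18, and -6.36 without neutrophil replicate 2). Csf3, the gene of G-CSF, had 2 counts over both F4/80- libraries and 321 over both neutrophil libraries, a ratio of 275 (95% counting interval 75.4 to 2280). Tnf (51.2 and 44.6 against 450 and 919 CPM), Ptgs2 (cyclooxygenase 2, -3.79) and Nos2 (inducible nitric oxide synthase, -3.98) were also higher in neutrophils, whereas Tgfb1 (-0.10), Il12a (-0.65) and Tnfsf9 (0.07) were not DEGs.

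Chemokine genes went both ways. Cxcl2 (chr5:90903871-90905938), a neutrophil attractant, was 92.8 and 141 CPM in F4/80- cells and 6760 and 12300 CPM in neutrophils (log2 fold change -6.35 ± 0.40, adjusted p = 5.2e-09). Cxcl3 (47.5 and 79.2 against 1230 and 2420 CPM), Cxcl10 (-2.78), Ccl3 (-2.33) and Ccl4 (-1.81) were higher in neutrophils too. Ccl9, a CC chemokine of myeloid cells, was instead higher in F4/80- cells (227 and 204 against 49.3 and 52.1 CPM), and Ccl22 had 246 counts over both F4/80- libraries and 1 over both neutrophil libraries (ratio 144, 95% counting interval 25.6 to 5700). In all, 4 of the 17 tested were higher in F4/80- cells and 7 in neutrophils, and the median log2 fold change was 0.55. For F4/80- cells this is 23.5%, near the 26.4% of all tested genes, and for neutrophils 41.2%, beside 22.6%. The count for F4/80- cells was 2 without neutrophil replicate 1 and 6 with scaling by library size, and the median was -0.01 without F4/80- replicate 2.

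Further genes with large differences on the neutrophil side were of mixed function. St3gal6, a sialyltransferase, was 0.0972 and 0.457 CPM in F4/80- cells and 74.7 and 131 CPM in neutrophils (log2 fold change -8.47), and Steap4, a metalloreductase, was 0.0486 and 0.365 CPM against 51.8 and 62.6 CPM (-8.02). Without F4/80- replicate 2 these values were -9.85 and -9.89. Arg2, the mitochondrial arginase, had 1.9 and 2.47 CPM against 144 and 166 CPM (-6.14). Hcar2, a receptor for niacin and ketone bodies, was abundant in neutrophils (23.6 and 30 against 1220 and 1370 CPM), as was Basp1 (12.8 and 25.3 against 578 and 1560 CPM). Ankrd33b and Chrm3, a muscarinic receptor, completed the 15 genes with the largest neutrophil excess, with log2 fold changes of -5.82 and -5.55, the latter -7.48 without F4/80- replicate 1.

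The promoter window of Cxcl2 (RefSeq, GRCm38.p6, chr5:90903649-90903948, plus strand) is shown for the most abundant of these chemokines. Capitals mark, on either strand, GGGA and TTTCC with any 1 base between them, the letters of a site for NF-kappaB, the transcription factor of inflammatory signalling.
Cxcl2: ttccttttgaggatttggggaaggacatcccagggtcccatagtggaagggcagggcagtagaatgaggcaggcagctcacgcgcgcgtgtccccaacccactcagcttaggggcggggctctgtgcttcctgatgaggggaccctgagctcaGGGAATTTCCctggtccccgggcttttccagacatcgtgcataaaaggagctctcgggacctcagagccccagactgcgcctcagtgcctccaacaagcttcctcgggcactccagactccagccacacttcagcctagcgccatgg
The match begins at position -97 from the start. The letters stand in 3 (Cxcl1, Cxcl2 and Cxcl3) of the 6 windows of the neutrophil-higher chemokine genes. They stand in 1 (Csf1) of the 13 windows of 10 such cytokine genes and in 0.411% of all windows. No match in this short window says nothing of sites elsewhere.

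Among receptors for cytokines and microbial products, cytokine receptor genes were higher in neutrophils in 18 of 25 (median log2 fold change -1.56), or in 11 (median -0.95) with scaling by library size. The largest differences were those of Csf3r, Il13ra1 (15.9 and 19.2 against 266 and 270 CPM) and the decoy receptor Il1r2 (71.1 and 73.1 against 713 and 869 CPM). Il6st, the signalling chain shared by interleukin 6 family receptors, was an exception with 84.1 and 94.4 CPM against 14.9 and 10.3 CPM (2.82). Pattern recognition receptor genes were higher in neutrophils in 17 of 22 (median -1.84). Cd14, a coreceptor for lipopolysaccharide, was 96 and 93.7 CPM against 2020 and 2410 CPM (-4.55 ± 0.22, adjusted p = 7.2e-10), Clec4e 83.2 and 79.3 CPM against 1280 and 2350 CPM, and Tlr13 47.4 and 46.5 CPM against 685 and 682 CPM. Nlrc4, an inflammasome sensor, was the other way round (24 and 24 against 6.5 and 5.51 CPM).

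Chemokine receptor genes numbered 4 higher in F4/80- cells and 6 in neutrophils of 11 tested. Ccrl2, an atypical receptor that presents chemerin, stood out among the latter with 8.12 and 7.58 CPM against 392 and 718 CPM (-6.14). Complement genes were higher in neutrophils in 9 of 12 (5 without neutrophil replicate 1 and 6 with scaling by library size), with the anaphylatoxin receptor genes apart: C5ar1 (67.4 and 65.3 against 575 and 547 CPM) and C5ar2 (-2.66) were higher in neutrophils and C3ar1 in F4/80- cells (28.9 and 28 against 9.79 and 9.1 CPM). Among 7 Fc receptor genes, Fcgr3 (-2.21) and Fcgr4 (-2.55), which bind immunoglobulin G, and the shared chain Fcer1g (-1.59) were higher in neutrophils and 2 were higher in F4/80- cells, Fcer1a among them. The Fcer1g call was lost with scaling by library size (-0.98).

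Glycolysis and hypoxia genes were higher in neutrophils in 26 of 27 and in none higher in F4/80- cells (median log2 fold change -2.17). Bnip3, a mitophagy receptor induced by hypoxia, was 24.5 and 26.4 CPM in F4/80- cells and 524 and 525 CPM in neutrophils (-4.37 ± 0.15, adjusted p = 5.3e-11). Egln3, a prolyl hydroxylase of the hypoxia pathway, was 24.6 and 34.9 CPM against 542 and 669 CPM, and Slc2a1, a glucose transporter, 46.5 and 58.5 CPM against 619 and 702 CPM. The enzyme genes themselves differed less, with log2 fold changes of -1.40 for Gapdh, -1.46 for Ldha and -1.77 for Pkm, and Gapdh (-0.79) and Ldha (-0.85) were not DEGs with scaling by library size. With scaling by library size 19 members were still higher in neutrophils.

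Interferon-stimulated genes (ISGs) were higher in neutrophils in 19 of 29 and in F4/80- cells in 3 (median -1.64), or in 15 and 5 with scaling by library size. Rsad2, an antiviral enzyme, was 2.53 and 3.15 CPM against 95 and 63.4 CPM (-4.80 ± 0.27, adjusted p = 2.4e-09), Oasl2 8.7 and 4.66 CPM against 191 and 155 CPM, and Isg15 1.36 and 1.64 CPM against 29 and 21.3 CPM. Mx1 and Gbp3 belonged to the 3 that were higher in F4/80- cells (2.46 and 1.64). Levels were modest in both populations, the summed CPM of the list being 342 and 288 in F4/80- cells and 1440 and 1000 in neutrophils.

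Genes of survival, adhesion and lipid mediators tended to the neutrophil side. In the BCL2 family 8 of 15 were higher in neutrophils, among them the prosurvival genes Mcl1 (467 and 476 against 2480 and 3480 CPM) and Bcl2l1 (23.9 and 27.6 against 271 and 299 CPM) and the proapoptotic Bcl2l11 (29.5 and 40.9 against 216 and 392 CPM), while Bcl2 itself was higher in F4/80- cells (13.4 and 14.5 against 2.99 and 2.45 CPM). Adhesion genes were higher in neutrophils in 12 of 21 (8 with scaling by library size), including Icam1 (22.3 and 18.4 against 192 and 299 CPM) and Cd44 (-2.57). In F4/80- cells 3 adhesion genes were higher (5 with scaling by upper quartile or library size). The integrin genes Itgb7 (90.2 and 83.1 against 21 and 16.6 CPM) and Itga6 (1.48) were higher in F4/80- cells. Pla2g7, an enzyme that degrades platelet activating factor, was 14.1 and 14.8 CPM against 576 and 512 CPM (-5.24). Of the 14 leukotriene and prostaglandin enzyme genes 6 were higher in neutrophils (4 with scaling by library size). Alox15, a lipoxygenase, was the reverse (34.8 and 24.9 against 0.897 and 1.57 CPM, log2 fold change 4.61 ± 0.30, adjusted p = 6.9e-09).

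NADPH oxidase genes were higher in neutrophils in 4 of 6 under TMM, but in 1 with the upper quartile or without neutrophil replicate 1, and in none with library size. The catalytic subunit gene Cybb was not a DEG (1630 and 1450 against 2450 and 1580 CPM). Of 33 lysosome genes 3 were higher in F4/80- cells and 10 in neutrophils, with a median of -0.66. Their shares were 9.09% and 30.3%, beside 26.4% and 22.6% of all tested genes. With scaling by library size the counts were 4 and 5 (median -0.05). Ctsc, which activates the granule serine proteases, was higher in F4/80- cells (334 and 297 against 118 and 105 CPM) and Ctsd (cathepsin D) in neutrophils (102 and 88 against 484 and 423 CPM).

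**Figure D4:**
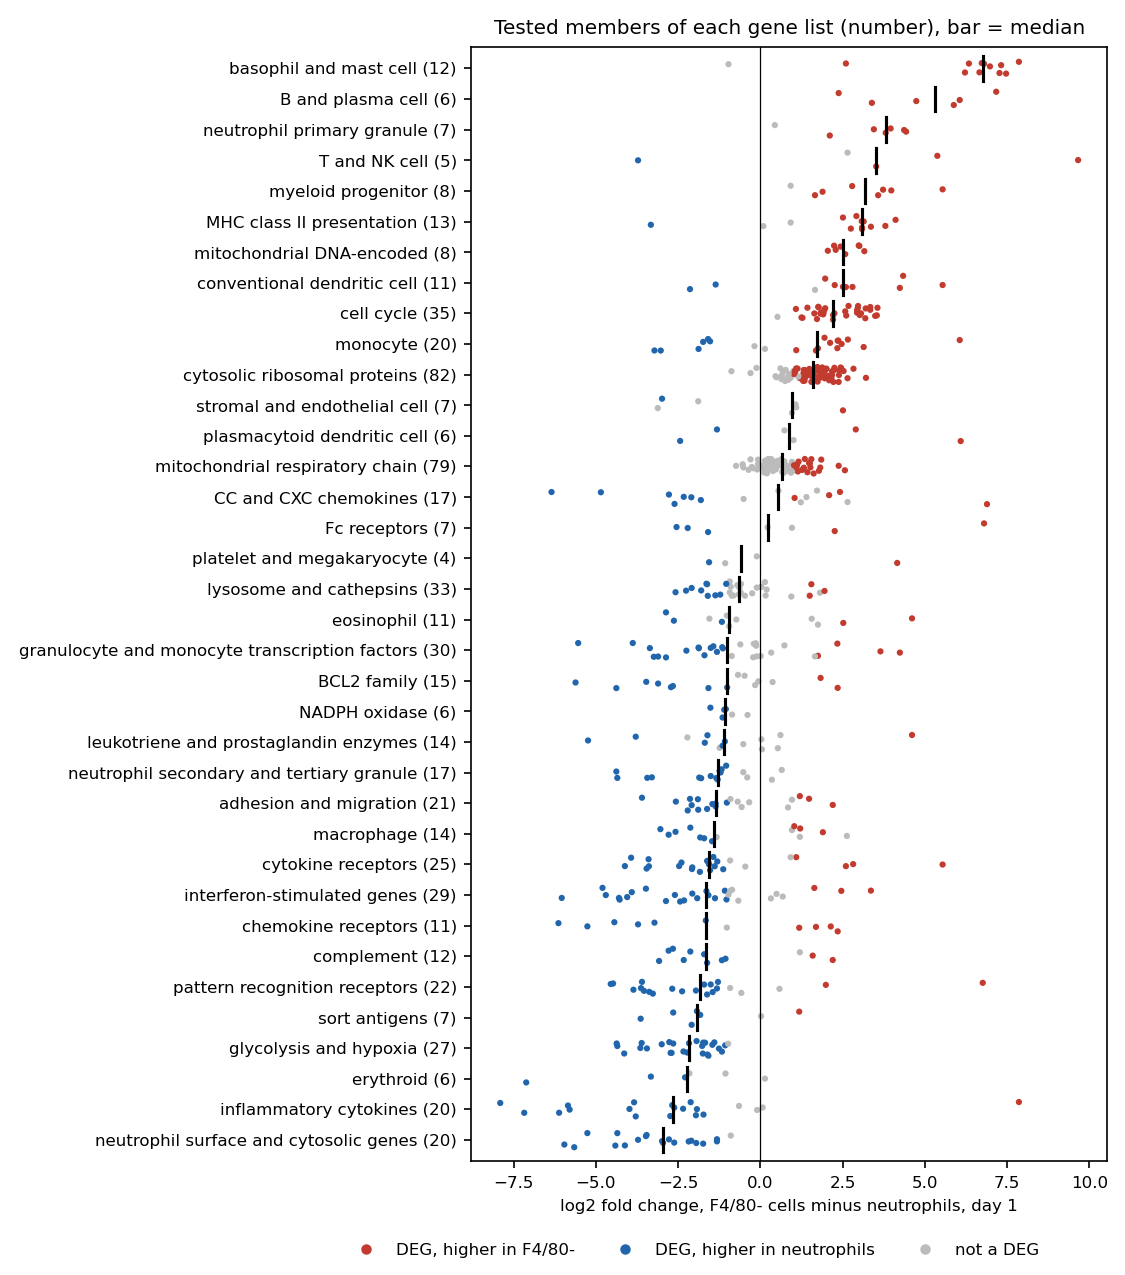
Log2 fold change (x axis, F4/80- cells minus neutrophils, day 1) of each tested member of 36 gene lists (rows, number of tested members in parentheses), red for DEGs higher in F4/80- cells, blue for DEGs higher in neutrophils and grey for other genes, with the median of each list as a black bar. The basophil and mast cell list has the highest median (6.76) and the list of neutrophil surface and cytosolic genes the lowest (-2.98).

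Markers of other cell types were looked at for both gates. Immunoglobulin genes were higher in F4/80- cells: Igkc was 249 and 180 CPM against 1.2 and 6.3 CPM, Jchain, which joins secreted antibody, 89.7 and 64.8 CPM against 0.0747 and 1.05 CPM, and Igha had 3843 counts over both F4/80- libraries and 3 over both neutrophil libraries (ratio 748, 95% counting interval 256 to 3630). The log2 fold changes of Igkc and Jchain were 5.88 and 7.17, and 7.47 and 9.84 without neutrophil replicate 2. The immunoglobulin genes share reads with their relatives. In the fit to all 16 libraries all 6 tested B and plasma cell genes were higher, with a median log2 fold change of 5.31. The median was 4.45 without neutrophil replicate 1 and 7.34 without neutrophil replicate 2. The summed CPM of the list, untested members included, was 938 and 696 against 55.7 and 57. The B cell genes Cd79a, Ms4a1, Pax5 and Ebf1 stayed under the test's CPM limit and Vpreb3 was at 0 in all 4 libraries.

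Of T and NK cell markers 5 of 16 were tested. The sum of the 12 with values, tested or not, was 27.3 and 34.4 CPM against 6.2 and 4.55 CPM. Gzmb (granzyme B) had 311 counts over both F4/80- libraries and 0 in neutrophils, at least 60.6-fold higher against a floor of 3 counts over the group. Nkg7 was 11.6 and 18.8 CPM against 1.57 and 1.05 CPM, while the T cell genes Cd3g, Trac and Cd4 were under the CPM limit. Cd3d was the 1 gene of the list higher in neutrophils, at 0 and 0.365 CPM against 3.29 and 1.84 CPM (log2 fold change -3.72, and -8.04 without F4/80- replicate 2). Macrophage genes were low in F4/80- cells, with a sum of 260 and 267 CPM against 970 and 1050 CPM in neutrophils, and 7 of 14 were higher in neutrophils and 3 in F4/80- cells. Spp1 (osteopontin, 109 and 120 against 616 and 758 CPM), Cd68 (59.6 and 49.5 against 150 and 151 CPM) and Apoe (35.9 and 33.4 against 143 and 104 CPM) were higher in neutrophils, Vcam1 (24 and 36.4 against 10.2 and 5.77 CPM) in F4/80- cells, and Mertk, at 1.22 and 0.365 CPM against 2.77 and 1.14 CPM, was not a DEG (-1.33, and -2.35, a DEG, without F4/80- replicate 1). Cd68 was not a DEG with scaling by library size (-0.86). Mrc1 and Trem2, the other 2 higher in F4/80- cells, had log2 fold changes of 1.03 and 1.21 and were not DEGs without neutrophil replicate 2 (0.62 and 0.94). Nor was Mrc1 without F4/80- replicate 2 (0.66), and Trem2 without F4/80- replicate 1 (1.10). The Mrc1 call was also lost with a replicate block (0.96) and in the fit to the compared libraries (1.17). Both the Mrc1 and the Trem2 call were lost in the test against a 1.5-fold difference. The macrophage counts were 5 higher in F4/80- cells and 5 in neutrophils without neutrophil replicate 1, and 1 and 7 without neutrophil replicate 2.

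Of 11 eosinophil genes 2 were higher in F4/80- cells and 3 in neutrophils. These shares, 18.2% and 27.3%, are near the 26.4% and 22.6% of all tested genes. The granule protein gene Epx was at 0 and 2.69 CPM against 0.598 and 0.175 CPM, which was not a DEG (1.75). Its value was 2.78, a DEG, without F4/80- replicate 1 and -5.39, not a DEG, without F4/80- replicate 2. Without neutrophil replicate 1 the eosinophil counts were 1 and 2, and with scaling by library size 3 and 1. Erythroid genes were low in all 4 libraries (3 of 6 higher in neutrophils, or 1 without F4/80- replicate 2, without neutrophil replicate 1 or with scaling by library size), with sums between 55.6 and 63.2 CPM of which Tfrc, a gene of dividing cells in general, made up 49.8 to 56.7 CPM. Of 4 platelet genes 1 was higher in each population, Pf4 and Ppbp were under 4 CPM throughout (Pf4 was a DEG with a replicate block, -1.14), and Itga2b, which basophils and mast cells also use, was 73.6 and 63.2 CPM against 2.99 and 4.72 CPM. Of 7 stromal genes 1 was higher in each population, with 0 to 2 in F4/80- cells and 0 to 3 in neutrophils when 1 library was left out. Col1a1 was 7.58 and 3.47 CPM against 30.8 and 10.1 CPM and was not a DEG (-1.89, adjusted p = 0.053 in edgeR's quasi-likelihood test). It was one with a replicate block (-1.81), in the fits to the compared libraries (-1.76) or to those of day 1 (-1.82), without the CD9 libraries of day 1 (-1.90, a fit added after seeing the data) and without neutrophil replicate 2 (-2.49). The part of such cells in the differences above was not tested.

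On day 14 after surgery the same gates gave 5842 DEGs, 3286 higher in F4/80- cells and 2556 in neutrophils. The days share no library, and each is 2 libraries against 2. Of the day 1 DEGs higher in F4/80- cells, 2630 were called in the same direction on day 14 (83.0% of the day 1 list and 80.0% of the day 14 list), and of those higher in neutrophils 1878 (69.2% and 73.5%). Only 46 genes were called in opposite directions on the days. The interaction term of the model, which tests whether the F4/80- to neutrophil ratio changed from day 1 to day 14, passed the same thresholds in 928 genes (7.73% of the genes tested). The ratio was higher on day 14 in 751 of them and lower in 177. Of the 751, 361 had been higher in neutrophils on day 1 and 167 in F4/80- cells.

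Among the 20 monocyte genes the interaction was called in 11, each with a higher ratio on day 14, while Ccr1, Treml4 and Nr4a1 had differences of -0.09, 0.06 and 0.05 and were not called. For Ccr2 the log2 fold change went from 2.35 on day 1 to 4.65 on day 14 (difference 2.30). Its CPM in F4/80- cells was 320 and 267 on day 14, close to day 1, and that in neutrophils 16 and 7.69, below day 1. The log2 fold change went for F13a1 from 2.37 to 5.34 and for Csf1r from -1.53 to 0.11. Irf8 went from 3.65 to 5.88. Some inflammatory genes that were higher in neutrophils on day 1 were less so or reversed, as Tnf did (-3.84 to -0.75) and Ccl3 (-2.33 to 2.91). Il1b had the same ratio on both days (-6.12 and -6.11, difference 0.01 ± 0.26), and Cxcl2 a similar one (-6.35 and -5.40, adjusted p of the difference 0.23). Among glycolysis and hypoxia genes 13 of 27 had a called interaction, for example P4ha1 (-3.45 to 1.20).

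Some late neutrophil genes moved down. Mmp9 went from -3.44 to -7.42 (difference -3.98 ± 0.66, adjusted p = 0.00096). In F4/80- cells it stood at 28.3 and 44.7 CPM by day 14, and in the day 14 neutrophils at 6060 and 6410 CPM. Retnlg (-4.35 to -8.26) and Fpr1, a receptor for formylated peptides (-4.35 to -8.27), did the same. Among basophil genes no difference was called for Mcpt8 (7.32 and 9.51), Prss34 (7.27 and 8.06) or Gata2 (6.98 and 8.56), and none for Mpo (4.37 and 5.07). A missed threshold does not show that the ratios were equal.

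**Figure D5:**
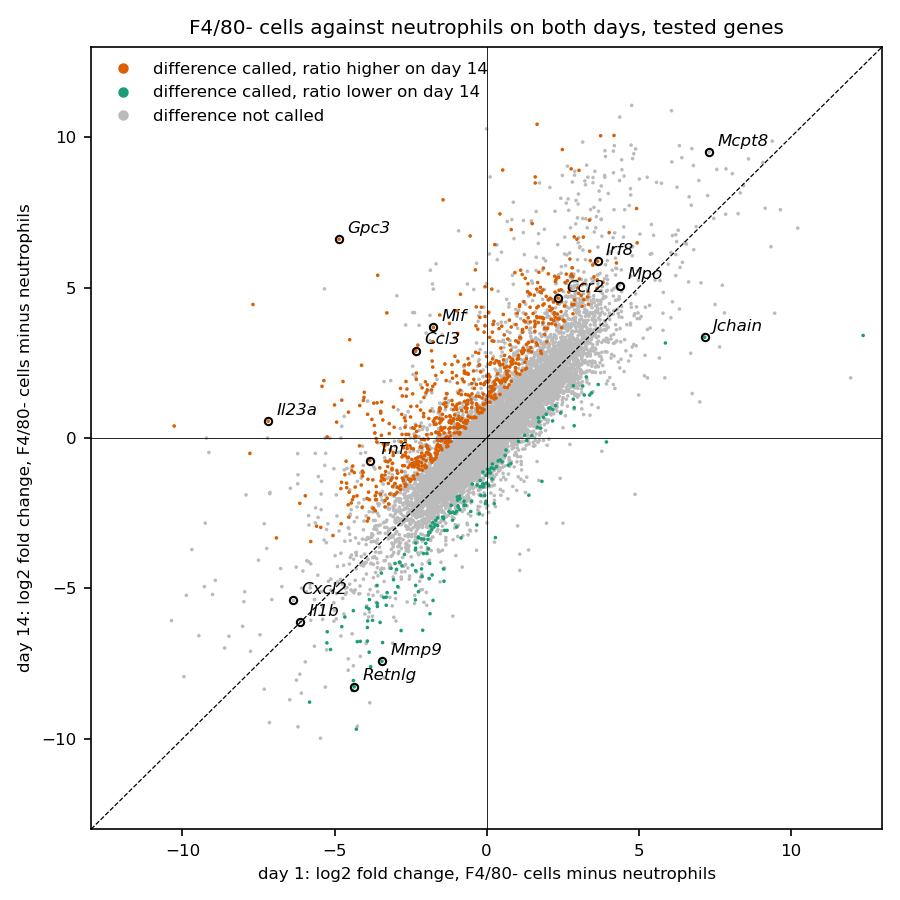
Log2 fold change of F4/80- cells minus neutrophils on day 1 (x axis) and day 14 (y axis) for the tested genes, with genes of a called interaction in orange (751, ratio higher on day 14) and green (177, ratio lower on day 14). Il1b and Cxcl2 lie near the dashed line of equal values, Ccr2, Irf8, Ccl3 and Tnf above it, and Mmp9, Retnlg and Jchain below it.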

How the data were processed

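RNA of pools of sorted cells was read by stranded, SMART-based RNA sequencing on an Illumina instrument. The authors trimmed the reads (Cutadapt), aligned them to mm10 with STAR and deposited raw counts per Gencode M23 gene, 20200 genes in 16 libraries. The strand setting of the counting is not given in the sources used here. Gene coordinates are mm10.

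Genes with a mean of at least 3 CPM in any of the 8 groups were tested. The quasi-likelihood test of edgeR 4.0.16 (R 4.3.3) was fitted to all 16 libraries with 1 coefficient per group and TMM factors, p-values were adjusted by Benjamini and Hochberg over all genes tested, with thresholds of 0.05 on the adjusted p and of 1 on the absolute log2 fold change. Within each group the 2 libraries are pools, so p-values measure only the spread between pools. Since the study used fewer mice than separate pools would need, same-numbered libraries of a day were taken to share a pool. Their deviations from the group means correlated at 0.161 on day 1, and a replicate block was run as an alternative. Other alternatives were DESeq2 1.42.0, other scalings, filters and library subsets. On simulated day 1 counts of 10294 genes, edgeR called 96 of 100 genes changed by 2 on the log2 scale, 98 of 100 changed by 3, and 5 unchanged genes. In that simulation 200 genes were changed, evenly in both directions, and all others had the same mean in every group. It therefore does not show how the test performs in this contrast, where 49.0% of the genes tested were DEGs.

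For genes with at most 3 counts in a population, counts per TMM-scaled library total were compared. The ratio is given with an exact interval, or as a bound against 3 counts over the group. Intervals and bounds cover counting error only. The members and lists were chosen with earlier results of these data known. Named are the 15 genes with the largest change in each direction (mean of at least 50 CPM in the higher population), up to 3 members of each list in each direction and 6 interaction genes of each sign. Further list members were named for their roles after their values were seen.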

Additional observations from a re-analysis of the deposited data

Results flagged for a closer look

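The difference between F4/80- cells and neutrophils changed between day 1 and day 14 in 928 genes by the interaction term of the edgeR model, and the genes with the largest changes are given here with their values. Gpc3, a cell surface proteoglycan gene, had a log2 difference of 11.46 between the days. It was 1.36 and 4.52 CPM in F4/80- cells against 98.5 and 72.8 CPM in neutrophils on day 1, and 1.09 and 0.651 CPM against 0 in both libraries on day 14, so the fitted difference depends on the prior count and is no bound. Il23a changed by 7.74, but the change was not called without F4/80- day 14 replicate 1 (5.23), and on day 14 no library held more than 0.87 CPM. Ppp1r13l (6.02), Fam129b (5.64), Mif, the macrophage migration inhibitory factor (5.44), and Nab2 (5.26) also had a higher ratio on day 14. Mif went from 54.6 and 52.7 CPM against 174 and 188 CPM to 16.8 and 14.7 CPM against 1.56 and 0.923 CPM. Without neutrophil day 14 replicate 1 the value of Fam129b was 6.81.

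Among the genes with a lower ratio on day 14, Gpr27 changed by -5.40, which was not called without F4/80- day 1 replicate 2 (-4.09) or F4/80- day 14 replicate 1 (-4.43) or by DESeq2 (-5.52) and was -8.69 without F4/80- day 14 replicate 2. Mmp9 (-3.98), Fpr1 (-3.92) and Retnlg (-3.91) were called without any of the 8 libraries in turn. Stfa2l1 (-3.98), one of a family of near-identical genes, was not called without any 1 of 7 of the 8 libraries (-3.42 to -4.88), by DESeq2 (-4.07) or against a 1.5-fold difference with glmTreat. Jchain changed by -3.82, and by -6.50 without neutrophil day 1 replicate 2. The monocyte and inflammatory genes followed between the days changed by 2.30 (Ccr2), 2.97 (F13a1), 1.64 (Csf1r), 2.23 (Irf8), 3.08 (Tnf), 5.24 (Ccl3) and 4.65 (P4ha1).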

How the results depend on the processing

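None of the 191 gene values followed reversed its direction with a call under the alternatives run. Of these values (172 of day 1 and 19 differences between days), 169 kept their call under all alternatives in which they were tested. The other 22 changed it under at least 1. With the CPM minimum required in every group, 101 kept their call, 2 lost it and the rest were not tested. Requiring the CPM minimum in every group left 7687 genes and gave 3052 DEGs (1748 higher in F4/80- cells and 1304 in neutrophils) and 547 interaction calls, since genes absent from 1 population could no longer be tested. Scaling by library size gave 1492 DEGs higher in neutrophils, and no fold change threshold gave 4178. The test against a 1.5-fold difference (glmTreat) gave 532 interaction calls. Leaving out 1 library gave 5272 to 5874 DEGs on day 1 (2760 to 3191 and 2419 to 2683 by direction) and 600 to 1097 interaction calls, the lowest without neutrophil day 14 replicate 2. A fit without the CD9 libraries of day 1, chosen after seeing the data, gave 6029 DEGs. A replicate block within each day gave 5868 DEGs (3168 and 2700) and 958 interaction calls, and among the values followed it changed the calls of Mrc1, Col1a1 and Pf4 alone. At these depths 3 counts were 0.137 to 0.262 CPM, which limits statements on genes near 0.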
